A study of Sus scrofa with 6 samples.

Results

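Complex I is the NADH:ubiquinone oxidoreductase of the mitochondrial inner membrane, and its nuclear-encoded subunits carry gene symbols that begin with NDUF. The records described here are all those of the deposited gene table outside the mitochondrial genome whose symbol begins with NDUF, which are 39 of 7661 records and 37 different symbols. The rule reads only the symbol and the chromosome of a record. The symbols cover 34 of the 37 nuclear genes for complex I subunits, 2 assembly factors of the NDUFAF series, and NDUFA4, which keeps its complex I name although the protein is now counted with complex IV. NDUFA6 and NDUFC2 have 2 records each, and these were kept apart. NDUFS8 and NDUFA3 are not analysed here, and NDUFV2 appears under another spelling, given further on.

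RNA sequencing had been done on longissimus muscle, the long muscle of the back, taken fresh from pigs (Sus scrofa). The high group was 3 pigs with high intramuscular fat content and the low group 3 pigs with low intramuscular fat content, 1 library per pig. No treatment, genotype, breed, sex or age is stated for either group in the sources used here. The question is which muscle transcripts differ with the fat content of the muscle, and here whether those of complex I do.

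The complex takes electrons from NADH, passes them along a chain of iron-sulphur clusters to ubiquinone, and pumps protons out of the mitochondrial matrix as it does so. It is L-shaped. The N module at the tip of the matrix arm oxidises NADH, the Q module beneath it reduces ubiquinone, and the membrane arm, with a proximal and a distal part, moves the protons. Core subunits carry out the chemistry, accessory subunits surround and stabilise them, and assembly factors help to build the complex without staying in it. In muscle it takes in electrons from the oxidation of both carbohydrate and fat.

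Library totals ran from 25371989 to 34813172 reads, and the lowest count of any NDUF record in any library was 243, so that no record was near the detection limit. All 39 passed the filter on low counts, as did all 7661 records. Skeletal muscle markers took between 99122 and 106611 CPM of each library (CPM is the read count scaled to a common library size), and none of the 7 matched markers of the labelled tissue was at 0. Levels below are the deposited CPM. Fold changes are log2 values of high minus low from a fit over all records (edgeR's quasi-likelihood test), each with its standard error (SE), and all adjusted p-values come from that test with Benjamini-Hochberg adjustment over the 7661 records unless another test is named. The threshold is 0.05. CPM values are larger for longer transcripts, so levels are compared between libraries and not between genes.

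NDUF transcripts were mostly lower in the high group, by a small amount, and no single record passed the threshold. Of the 39 records 35 had a log2 fold change below 0, which is 89.7%, against 54.8% of all records. The median was -0.22, a level 14.1% lower in the high group, against -0.04 for all records, and single records ran from -0.62 (NDUFV3) to 0.21 (NDUFAF1). The count past the threshold was 0 of 39, where the whole table had 0.144% called in either direction and 0.0131% called lower. At an unadjusted p under 0.05 there were 8 NDUF records (20.5%), all lower, against 8.41% of all records lower and 18.7% in either direction at that level. DESeq2 called 1 NDUF record, NDUFV3, as lower, where it called 1.84% of all records lower and 6.77% in either direction. The edgeR exact test called 0 NDUF records, where it called 0.875% of all records lower and 4.12% in either direction. In the authors' deposited table, of all records 4.12% had a false discovery rate under 0.05 and 0 NDUF records did, the lowest being 0.102 for NDUFV3.

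**Figure D1:**
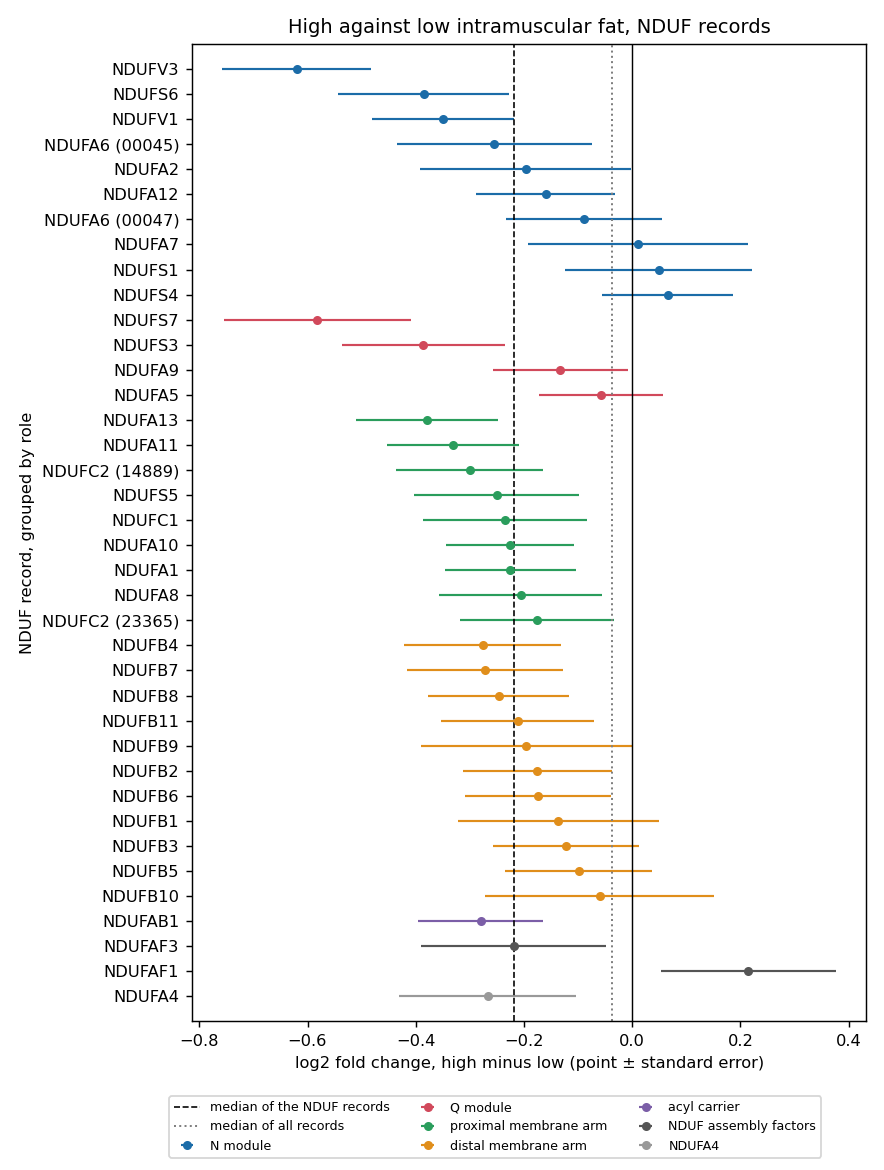
Log2 fold change, high minus low, of 38 of the 39 NDUF records (points, with bars of 1 standard error), grouped by place in the complex; digits in brackets are the end of the record identifier where a symbol has 2 records. Most points lie left of 0, the dashed median stands at -0.22 and the dotted median of all records at -0.04, and the records right of 0 are NDUFAF1, NDUFS4, NDUFS1 and NDUFA7.

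How far the groups stood apart depended on the scaling of the libraries. On the deposited CPM, 26 of the 39 records (66.7%) were lower in every high library than in any low library, against 13.7% of all records, and 0 were higher without overlap, against 10.4% of all records. After scaling with TMM factors, which lie between 0.939 and 1.07 here, 13 records (33.3%) did not overlap, against 13.3% of all records. Low library 2 had the highest factor and moved down, and high library 1 had one of the lowest and moved up. Among the 13 were NDUFV3, NDUFV1, NDUFS7, NDUFS3, NDUFA13, NDUFA11, NDUFA10, NDUFA1, NDUFB4, NDUFB8, NDUFAB1 and the NDUFC2 record ENSSSCG00000014889. Fold changes of the reported fit use the TMM factors.

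**Figure D2:**
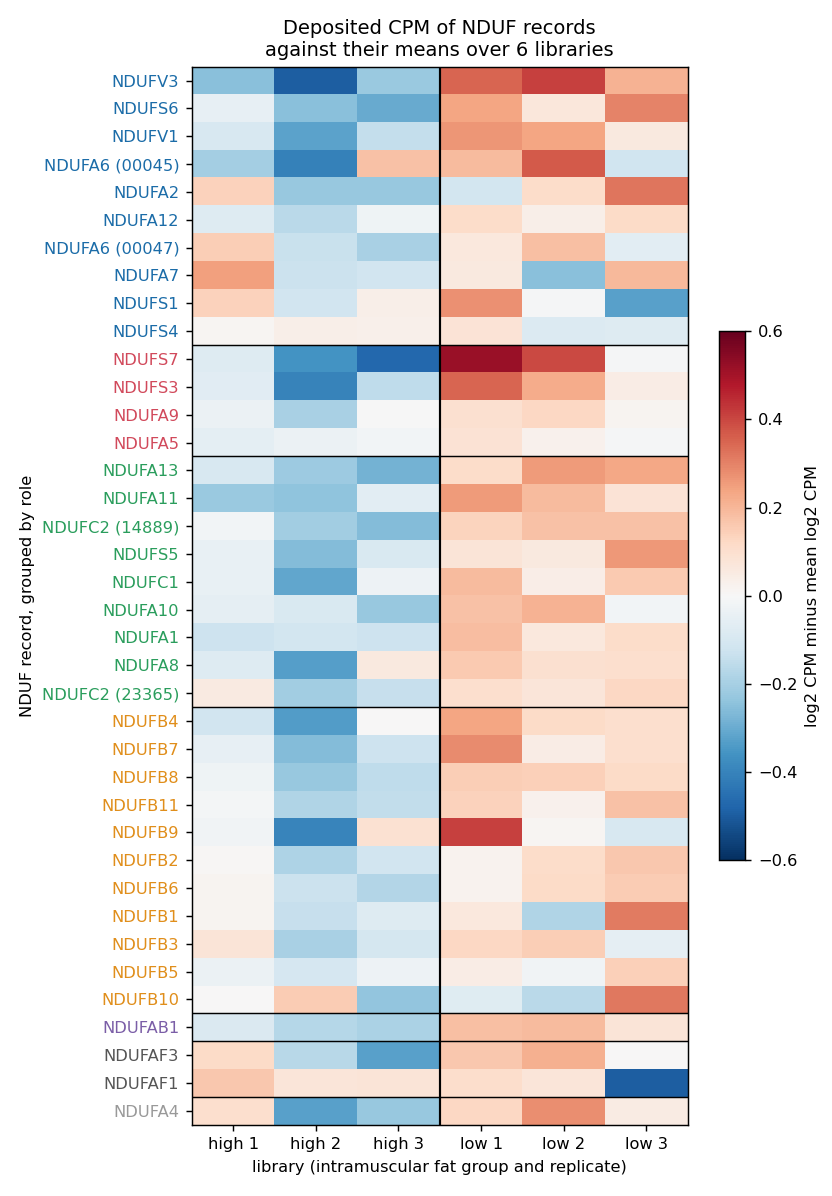
Deposited CPM of 38 of the 39 NDUF records in the 6 libraries, as log2 deviation from the record's own mean (red above, blue below), with records grouped by place in the complex. High library 2 is blue in nearly every row, and low library 1 is red in nearly every row, while NDUFS1, NDUFAF1, NDUFA7 and NDUFB10 go against the pattern in single libraries.

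The shift was not the same in every library of a group. On TMM-normalised log2 CPM the median deviation of the 39 records from their mean was 0.03, -0.24 and -0.12 in high libraries 1 to 3 and 0.12, 0.01 and 0.19 in low libraries 1 to 3. Thus high library 1 lay slightly above low library 2, and the library medians of the groups overlapped. In high library 2 only 2 of the 39 records were above their own mean, while in low library 1 there were 37 and in low library 3 there were 35. Without high library 2 the median fold change of the NDUF records was -0.13, and without each of the other libraries it lay between -0.28 and -0.17. The number of lower records was between 33 and 37 as single libraries were left out.

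The N module is where NADH binds and gives up its electrons. Of its 10 records 7 were below 0 and 3 above, and the median log2 fold change was -0.18. The groups did not overlap for 4 of 10 in deposited CPM (13.7% of all records) and for 2 of 10 after TMM scaling (13.3% of all records). NDUFV3, an accessory subunit beside the flavin-binding site, was at 18.96, 15.998 and 19.4 CPM in high libraries 1 to 3 and at 28.8, 30.03 and 26.1 CPM in low libraries 1 to 3. All high libraries were below all low ones, and the means were 18.1 ± 1.84 and 28.3 ± 2.02 CPM (SD, n = 3). The record (ENSSSCG00000021991, chromosome 13, 216572830 to 216576892) was lower by 34.9% in the fit, which is -0.62 in log2 (SE 0.14, adjusted p = 0.112). With DESeq2 it was -0.61 and passed (adjusted p = 0.00622). Leaving out 1 library at a time gave edgeR values between -0.67 and -0.52.

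NDUFV1, the core subunit that holds the flavin mononucleotide and the NADH site, stood at 68.5, 58.6 and 66.3 CPM in the high and at 87.9, 86.3 and 76.2 CPM in the low libraries. Its groups did not overlap, with high library 2 lowest and low library 3 nearest to the high group. In log2 the difference was -0.35 (SE 0.13, adjusted p = 0.225; ENSSSCG00000012896, chromosome 2, 3598806 to 3604500). NDUFS1, the large core subunit with several iron-sulphur clusters, behaved differently: it stood at 225, 189 and 209 CPM in the high and at 247, 203 and 163 CPM in the low libraries. The low group spanned the whole high group, low library 1 being highest and low library 3 lowest of all. Its log2 fold change was 0.05 (SE 0.17, adjusted p = 0.894; ENSSSCG00000016127, chromosome 15, 120961661 to 120998378).

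Other accessory subunits of the N module were divided. NDUFS6, which carries a zinc site, was at 38.4, 33.4 and 32.2 CPM in the high and at 46.8, 41.6 and 48.7 CPM in the low libraries, without overlap in deposited CPM (-0.39, SE 0.16, adjusted p = 0.249). NDUFA7 was at 42.3, 32.6 and 32.9 CPM against 37.1, 29.97 and 40.8 CPM, so that the groups were mixed (0.01, SE 0.20, and -0.0060 with upper-quartile scaling). NDUFA2 was at 35.1, 27.2 and 27.2 CPM against 29.5, 34.3 and 39.8 CPM, with high library 1 among the low ones (-0.20, SE 0.19), and 27.7% of its span is shared with TMCO6 on the other strand. NDUFS4, a subunit needed for a stable N module, had 0.07 (SE 0.12) and NDUFA12 -0.16 (SE 0.13).

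NDUFA6, an LYR-motif subunit that binds the acyl carrier, has 2 records on chromosome 5. The record ENSSSCG00000000045 (3786583 to 3792164) stood at 31.9, 27.8 and 41.5 CPM in the high and at 41.9, 47.4 and 33.8 CPM in the low libraries (-0.25, SE 0.18). The record ENSSSCG00000000047 (3855965 to 3995674) stood at 117, 96.3 and 92.5 CPM against 110.3, 119.9 and 101 CPM (-0.09, SE 0.14). Groups overlapped in both. The second record spans 139.7 kb and encloses 3 further records. One of the enclosed records lies on the opposite strand and held between 42.2% and 62.04% of the second record's count, and which of these reads come from NDUFA6 was not tested.

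The Q module holds the site where ubiquinone is reduced. All 5 of its records were below 0 (median -0.25). The groups did not overlap for 5 of 5 in deposited CPM (13.7% of all records) and for 3 of 5 after TMM scaling (13.3% of all records). NDUFS7, a core subunit with the last iron-sulphur cluster before ubiquinone, was at 69.9, 57.6 and 53.1 CPM in the high and at 105.4, 97.1 and 73.3 CPM in the low libraries. High libraries all lay below the low ones, though low library 3 came close to high library 1, and the means were 60.2 ± 8.72 and 91.9 ± 16.7 CPM (SD, n = 3). The log2 fold change was -0.58 (SE 0.17, adjusted p = 0.162; ENSSSCG00000024144, chromosome 2, 77972668 to 77979308), and DESeq2 gave an adjusted p of 0.0596.

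NDUFS3, the core subunit at the hinge of the matrix arm, was at 73.9, 58.5 and 69.6 CPM in the high and at 98.6, 90.3 and 79.7 CPM in the low libraries. Again high library 2 was lowest and low library 3 nearest to the high group (-0.39, SE 0.15, adjusted p = 0.237). A stretch of 227 bases of its span is shared with KBTBD4 on the other strand. The accessory subunits NDUFA9 and NDUFA5 had -0.13 (SE 0.12) and -0.06 (SE 0.11). Together the 5 core subunits within the NDUF rule had a median of -0.35, with 4 lower, and the 31 accessory records had -0.21, with 29 lower. The difference between these medians was not tested. NDUFV2, a further core subunit measured under another spelling, is outside this count and had -0.07 (SE 0.14).

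All 9 records of the proximal membrane arm were lower, with a median of -0.24. All 9 did not overlap in deposited CPM (13.7% of all records) and 5 did not after TMM scaling (13.3% of all records). NDUFA13, also known as GRIM-19, was at 58.02, 53.4 and 50.98 CPM in the high and at 66.96, 73.9 and 72.9 CPM in the low libraries. The groups lay well apart (-0.38, SE 0.13, adjusted p = 0.201; chromosome 2, 58287586 to 58296458). NDUFA11, an accessory membrane subunit, was at 34.1, 33.7 and 38.1 CPM against 47.5, 45.4 and 42.1 CPM, with high library 3 and low library 3 nearest to each other (-0.33, SE 0.12, adjusted p = 0.2203). NDUFA10, a kinase-like subunit on the matrix face, was at 75.4, 73.6 and 66.9 CPM against 88.5, 90.3 and 77.5 CPM (-0.23, SE 0.12, adjusted p = 0.338). Here low library 3 was the lowest of the low group.

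NDUFC2, a small subunit of the proximal arm, has 2 records on chromosome 9. At ENSSSCG00000014889 (13821217 to 13827297) the values were 31.5, 27.5 and 26.6 CPM in the high and 34.9, 36.03 and 35.9 CPM in the low libraries, with little spread in the low group (-0.30, SE 0.14, adjusted p = 0.2902). At ENSSSCG00000023365 (13586610 to 13592941) they were 44.4, 36.97 and 38.8 CPM and 45.8, 45.1 and 46.6 CPM (-0.18, SE 0.14, adjusted p = 0.516). In deposited CPM both records had the high group below the low group, high library 1 being the nearest. Records of 1 symbol can share reads and are not independent of each other.

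The distal membrane arm is made, on the nuclear side, of the NDUFB subunits. All 11 records were below 0, with a median of -0.18, and lay between -0.28 (NDUFB4) and -0.06 (NDUFB10). None had an unadjusted p under 0.05, where 8.41% of all records were lower and 18.7% in either direction at that level. The groups did not overlap for 7 of 11 in deposited CPM (13.7% of all records) and for 2 of 11 after TMM scaling (13.3% of all records). NDUFB9, another LYR-motif subunit, was at 106, 82.2 and 115 CPM in the high and at 143, 109 and 101 CPM in the low libraries, so that the groups overlapped (-0.20, SE 0.20). It lies wholly inside the span of TMEM65 on the other strand, whose count was 163% to 199% of its own. NDUFAB1, the mitochondrial acyl carrier protein, which sits in both the matrix and the membrane arm, was at 65.4, 61.8 and 60.9 CPM in the high and at 78.9, 79.3 and 73.4 CPM in the low libraries. These groups were well apart (-0.28, SE 0.12, adjusted p = 0.255).

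The NDUFB10 record needs separate mention because its count is nearly that of a record that overlaps it. It was at 1229, 1365 and 1044 CPM in the high and at 1170, 1100 and 1529 CPM in the low libraries, with mixed groups (-0.06, SE 0.21; ENSSSCG00000030328, scaffold GL896557.1, 11612 to 15721). A record without a symbol on the opposite strand, ENSSSCG00000022859 (11612 to 13696), lies wholly within it. Its count equalled between 97.5% and 98.5% of the NDUFB10 count in every library. The shorter records ENSSSCG00000026828 (135 bases) and ENSSSCG00000027755 (128 bases) lie on that strand within the same stretch. Their counts equalled 14.0% to 15.6% and 12.2% to 13.5% of the NDUFB10 count. Whether the counting used strand is not given in the sources used here.

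Only the longest overlapping record, ENSSSCG00000022859, was subtracted. The count left in the 3 high libraries was 633, 536 and 702 reads, and in the 3 low libraries 1033, 859 and 855 reads. As CPM this was 24.9, 21.02 and 24.3 against 29.7, 27.4 and 28.4. On this scale, without TMM factors, the remainder was lower in every high library than in any low one, unlike the record as deposited. Its means were 23.4 ± 2.11 and 28.5 ± 1.15 CPM (SD, n = 3), a log2 difference of -0.28, and an exact permutation test, two-sided, gave p = 0.1, the smallest that 3 against 3 can give. The permutation result holds on that scale only. With the TMM factors, 0.958 in high library 1 and 1.07 in low library 2, high library 1 would lie above low library 2. The subtraction takes every read of the overlapping record to be counted in NDUFB10 too, which was not tested. It was made after the data had been seen. The NDUFB10 record made up between 26.4% and 36.1% of the summed CPM of all NDUF records, so sums are given without it: 2798, 2416 and 2588 CPM in the high libraries and 3169, 3059 and 2879 CPM in the low libraries.

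**Figure D3:**
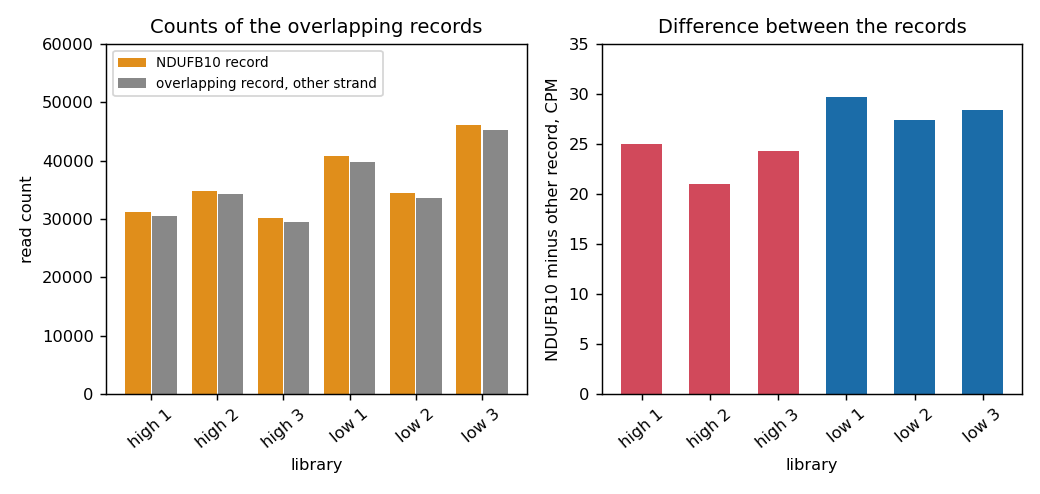
Left, read counts of the NDUFB10 record and of the longest record overlapping it on the other strand in each library, which are nearly equal throughout. Right, the difference between both records in CPM, from 21.02 to 24.9 in the high libraries (red) and from 27.4 to 29.7 in the low libraries (blue).

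The remaining 17 records of the complex, with mean levels between 36.5 and 98.5 CPM, are given by their range. Of these 16 were lower in the high group and NDUFS4 was higher, and log2 fold changes ran from -0.28 to 0.07 with a median of -0.18 and adjusted p-values between 0.338 and 0.805. In deposited CPM 14 of the 17 did not overlap (13.7% of all records), but after TMM scaling only 3 did not (13.3% of all records), NDUFB4, NDUFB8 and NDUFA1. They include NDUFB4 and NDUFB8 (-0.28, SE 0.14, and -0.25, SE 0.13), NDUFS5 (-0.25, SE 0.15), NDUFC1 (-0.24, SE 0.15) and NDUFA1 (-0.23, SE 0.12). Across the 39 records the median SE was 0.14, and the typical 95% confidence interval, given by the medians of the bounds, reached from -0.56 to 0.14. For 8 records the interval lay wholly below 0. These are the 8 with an unadjusted p under 0.05, where 8.41% of all records were lower at that level. A change of the size seen here is therefore within the error of most single records, and a p above the threshold does not show that a record was unchanged.

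NDUFA4 was at 332, 247 and 265 CPM in the high and at 338, 376 and 321 CPM in the low libraries, with high library 1 inside the low range (-0.27, SE 0.16, adjusted p = 0.403). Of the 2 NDUFAF records 1 was above 0 and 1 below. NDUFAF1, which helps to build the membrane arm, was at 20.2, 18.98 and 19.01 CPM in the high and at 19.4, 18.97 and 12.8 CPM in the low libraries. Only low library 3 stood apart, and the log2 fold change of 0.21 (SE 0.16, adjusted p = 0.491) was 0.09 without it. NDUFAF3, an early-acting factor, was at 11.6, 9.53 and 8.52 CPM against 11.9, 12.4 and 10.7 CPM, and its groups overlapped (-0.22, SE 0.17, adjusted p = 0.507).

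A few records of the same machinery carry other symbols and fall outside the NDUF rule. The table spells the flavoprotein NDUFV2 as NUDFV2, and this record had -0.07 (SE 0.14, adjusted p = 0.819). C8ORF38 and C2ORF56, other symbols of the assembly factors NDUFAF6 and NDUFAF7, had -0.12 (SE 0.14) and 0.07 (SE 0.14). Of 15 further assembly factors 9 were matched, on 10 records, of which 9 were lower (median -0.17) and 0 passed the threshold. ECSIT, an assembly factor also known from innate immune signalling, was at 62.4, 59.7 and 65.4 CPM in the high and at 85.5, 77.5 and 77.7 CPM in the low libraries, without overlap (-0.34, SE 0.13, adjusted p = 0.2203). FOXRED1 had -0.55 (SE 0.22, adjusted p = 0.246), with its groups overlapping.

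The other respiratory complexes gave values of much the same size. All 38 nuclear records for complexes II to V were below 0, their median was -0.20 against -0.22 for the NDUF records, and 0 passed. Medians were -0.22 for complex II, -0.21 for complex III, -0.23 for complex IV and -0.19 for complex V. The smallest p-values were those of COX8A, a small subunit of complex IV (-0.52, SE 0.13, adjusted p = 0.131), and ATP5I, a small membrane subunit of complex V (-0.41, SE 0.12, adjusted p = 0.164). In the single libraries their median deviations were 0.03, -0.27 and -0.08 in high libraries 1 to 3 and 0.14, -0.03 and 0.21 in low libraries 1 to 3, the same order as for the NDUF records. The mitochondrial genome encodes the 7 ND subunits of the membrane arm, and these followed another order: 5 of 7 were lower (median -0.26), but summed levels were 18066, 17795 and 27785 CPM in the high and 33775, 20254 and 17403 CPM in the low libraries. Low library 3, which had the highest median deviation of the NDUF records, had the lowest sum of the ND genes. Of these MT-ND6 had -0.29 (SE 0.24, adjusted p = 0.528) and MT-ND3 -0.36 (SE 0.31, adjusted p = 0.545), with standard errors about as large as the values.

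**Figure D4:**
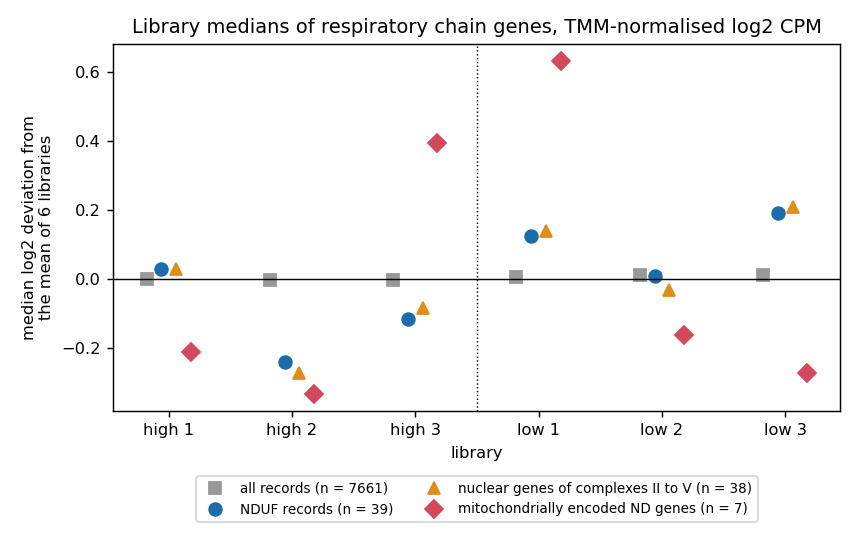
Median log2 deviation of TMM-normalised CPM from the mean of the 6 libraries, by library, for all records (grey squares), the 39 NDUF records (blue circles), 38 nuclear records of complexes II to V (orange triangles) and the 7 mitochondrially encoded ND genes (red diamonds). The blue and orange points lie close together in each library, lowest in high library 2, whereas the red points are highest in low library 1 and high library 3.

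Regulators of mitochondrial gene expression were matched for 3 of 8 symbols, with 0 past the threshold. ESRRA, the estrogen-related receptor alpha, which drives many genes of oxidative metabolism, was at 109, 88.2 and 93.8 CPM in the high and at 154, 158 and 143 CPM in the low libraries. The groups did not overlap in deposited CPM (13.7% of all records) or after TMM scaling (13.3% of all records). The log2 fold change of ESRRA was -0.62 (SE 0.14, adjusted p = 0.113). After TMM scaling 2 of the 3 regulator records were lower without overlap. GABPB1, a subunit of the nuclear respiratory factor GABP, had -0.24 (SE 0.14), and the record listed as PPARGC1 had 0.02 (SE 0.46).

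Markers of other cells and of fibre types moved with the groups in part. In whole muscle, fewer cells of a type and less RNA per cell cannot be told apart. All 9 fibroblast marker records, from 7 symbols, were higher in the high group, where 54.8% of all records were lower. Of these 9, 0 passed the threshold (smallest adjusted p = 0.104). Their summed level lay between 3124 and 4291 CPM in the high and between 1466 and 2636 CPM in the low libraries. Of 9 adipocyte marker records, from 8 symbols, 7 were higher, where 54.8% of all records were lower. The threshold was passed by 2 of these 7, where 10 of all 7661 records were called higher. They were PLIN1 and 1 of the 2 THRSP records. The sums lay between 324 and 672 CPM in the high and between 259 and 395 CPM in the low libraries. The other 2 of the 9 records were lower, down to -0.66, and 1 of them did not overlap in deposited CPM (13.7% of all records). PLIN1, the perilipin that coats fat droplets, was at 27.2, 39.9 and 60.3 CPM in the high and at 8.13, 5.10 and 5.81 CPM in the low libraries (2.75, SE 0.32, adjusted p = 0.0404). The adipocyte markers ADIPOQ, LEP, FABP4 and PPARG are not analysed here. All 5 slow fibre records were lower, none past the threshold, with sums from 7246 to 10451 CPM in the high and from 5820 to 14883 CPM in the low libraries, and 3 of 4 fast fibre records were higher. Among endothelial markers 3 of 4 records were higher, among smooth muscle markers 2 of 4, both macrophage records were higher and both erythrocyte records lower, with 0 past the threshold. No matched marker record of these lists was at 0 in any library. The part of cell or fibre composition in the lower NDUF values was not tested.

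Gene span moved with the fold changes as well. NDUF records are short, with a median genomic span of 6.78 kb against 21.7 kb for all records, and in the whole table the fold changes were higher for longer records. With the trend of each library with span removed, the median of the NDUF records was -0.10 (all records -0.01), 33 of 39 were below 0 against 52.1% of all records, and 0 passed. NDUFV3 then had -0.46 (adjusted p = 0.188), NDUFS7 -0.44 (adjusted p = 0.305) and NDUFA13 -0.25 (adjusted p = 0.352). Complexes II to V had a median of -0.07 on that scale. What lies behind the trend was not tested.

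**Figure D5:**
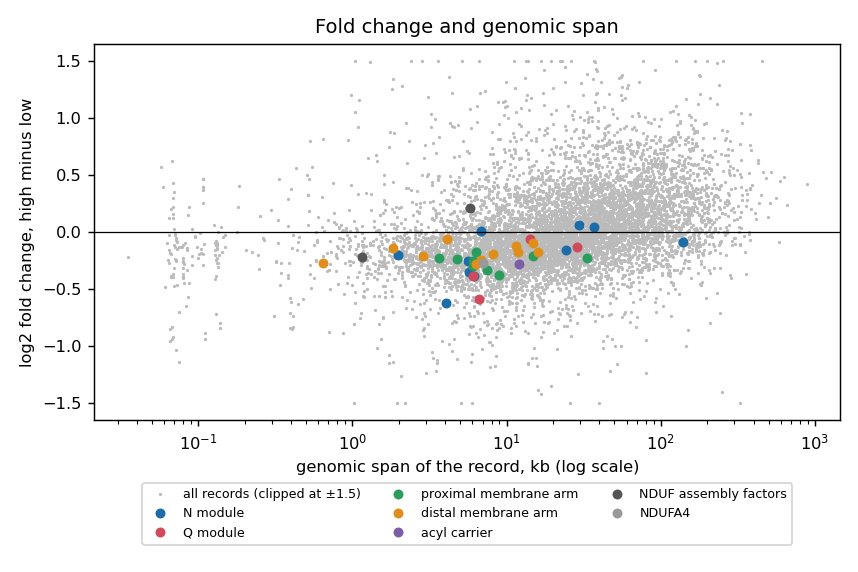
Log2 fold change, high minus low, against the genomic span of each record in kb on a log axis, with all records in grey (values beyond ±1.5 drawn at that limit) and 38 of the 39 NDUF records in colour by place in the complex. The grey cloud rises with span, and most NDUF records lie in its lower left part, around 6.78 kb and -0.22.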

How the data were processed

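The submitters' processing notes name FastQC 0.10.1, Trimmomatic 0.22, TopHat2 2.0.4 and BWA 0.6.2. Not given in the sources used here are the read counter with its strand setting, the build and the annotation. The coordinates printed are the deposited ones. The authors deposited read counts as whole numbers and CPM. The totals implied by the CPM served as library sizes. The log2 fold changes deposited by the authors are low against high, so their sign was reversed. Their p-values and false discovery rates are named as the authors' where quoted.

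Counts of all 7661 records were fitted with edgeR 4.0.16 in R 4.3.3, using TMM factors, filterByExpr, the quasi-likelihood test, no covariates, and Benjamini-Hochberg adjustment. For each record the SE was the size of the log2 fold change over the root of its F statistic. The fit was also run on simulated data, and no result here rests on that run. Alternatives used DESeq2 1.42.0, limma-voom 3.58.1, other scalings and left-out libraries.

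The NDUF records and the gene lists were chosen with earlier results of these data known. The rule gave full values for core subunits, NDUFAF factors, symbols with 2 records, records past the threshold and, of the rest, the 6 smallest p and the 3 highest and 3 lowest mean CPM. One NDUF record enters every count and median, but its own values are not reported here.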

Additional observations from a re-analysis of the deposited data

How the results depend on the processing

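With every other scaling, filter and test, and with single libraries left out, between 33 and 37 of the 39 NDUF records were lower, against 35 in the reported fit, and their median was below 0. Every record passed the filter on low counts, so the run without that filter could not differ from the reported fit. The NDUF median was -0.10 with the span trend removed and ran from -0.28 to -0.13 with single libraries left out. DESeq2 called 1 NDUF record, NDUFV3, and every other alternative called 0. Of all records 11 were called, but 518 by DESeq2, 316 by the edgeR exact test, 82 at a threshold of 0.1, and 1 to 30 with single libraries left out. With the replicate block 2 records were called, 0 of them NDUF, and the NDUF median was -0.22. The replicate numbers are not said to pair the libraries, and the weak correlations between libraries cannot show whether they do. Correlations of same-numbered deviations across genes were 0.12, 0.03 and -0.08. The highest of any pair, 0.14, was between high library 2 and low library 3.

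The sign reversed for 7 NDUF records, whose values in the reported fit lay between -0.14 (NDUFB1) and 0.07 (NDUFS4). With the span trend removed NDUFB1 had 0.029, NDUFA5 0.038, NDUFB10 0.12 and NDUFS1 -0.0020, and with upper-quartile factors NDUFA7 had -0.0060. With single libraries left out the values ran from -0.29 to 0.059 for NDUFB1, -0.18 to 0.0060 for NDUFB5, -0.14 to 0.17 for NDUFA7, -0.044 to 0.22 for NDUFS1, -0.0047 to 0.13 for NDUFS4 and -0.19 to 0.17 for NDUFB10. The cause was not tested. Without the overlapped and duplicate records 27 NDUF records were lower (median -0.23), and without NDUFB10 34 were (median -0.22), both chosen after seeing the data. With 3 libraries a group, a log2 difference near the median is within the error of a single record.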

Other observations

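Both NDUFC2 records lie beside a record of THRSP, which encodes a protein of fatty acid synthesis known as Spot 14. This pair was picked after the values had been seen. The NDUFC2 record ENSSSCG00000014889 lies 5.545 kb from the THRSP record ENSSSCG00000024447, which stood at 17.1, 12.8 and 24.3 CPM in the high and at 1.46, 2.74 and 2.95 CPM in the low libraries (log2 fold change 2.94, SE 0.35, edgeR adjusted p = 0.0437). The NDUFC2 record had -0.30. The other NDUFC2 record, ENSSSCG00000023365, lies 5.531 kb from the THRSP record ENSSSCG00000020745, which stood at 28.1, 22.1 and 35.4 CPM against 13.2, 13.4 and 14.997 CPM (1.05, SE 0.21, edgeR adjusted p = 0.1025). That NDUFC2 record had -0.18. In deposited CPM the THRSP record was in both places higher in every high library than in any low one (10.4% of all records). The NDUFC2 record was lower in the same way (13.7% of all records), but after TMM scaling the groups of ENSSSCG00000023365 overlapped. Both places hold the same pair of symbols and are not independent of each other.

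Within 10 kb, 21 NDUF records had 31 neighbours, of which 25 were lower in the high group, with a median log2 fold change of -0.16. Of all records 54.8% were lower, with a median of -0.04. The neighbours were not compared with the span trend removed. In 11 of these pairs the NDUF record and its neighbour had opposite signs. NDUFAF3 lies 2.95 kb from DALRD3, which had -0.54 (SE 0.14, edgeR adjusted p = 0.138), and the NDUFA6 record ENSSSCG00000000045 lies 0.284 kb from SMDT1, which encodes a small subunit of the mitochondrial calcium uniporter complex, and which had -0.45 (SE 0.21, edgeR adjusted p = 0.289).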
